A study of Homo sapiens with 5 samples.

Results

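A set of 9 genes, which are EPCAM, MSLN, CEACAM1, CEACAM5, CEACAM6, LY6D, LY6E, LY6K and LYPD3, was chosen by gene symbol as surface proteins used as targets in carcinoma or as members of the LY6 family. Earlier results of these data were known when the set was chosen. Where a symbol had several entries in the expression table, the entry was selected on the highest mean FPKM (fragments per kilobase of transcript and per unit of sequencing depth) over the 5 libraries. Of the 9 symbols, 8 named an entry among the 37181 entries of the table, of which the 1 named CEACAM6 also holds CEACAM5, and 7 of these entries were tested, along with the rest of the 16189 entries whose mean reached 0.5 FPKM. Gefitinib-resistant HCC827/GR cells held less RNA of 4 of these entries than parental HCC827 cells. On the log2(FPKM + 1) scale LY6D and EPCAM fell furthest, and LY6E fell by a smaller amount. The joined CEACAM5 and CEACAM6 entry was at or near 0 FPKM in the resistant cells. Not every call held in every fit. LY6E was not called without the filter on low values, and LY6E and the joined entry were not called with a library-size covariate, defined below. None of the 4 was called when replicate numbers were added to the fit as a block. Of the remaining genes, CEACAM1, LYPD3 and LY6K did not pass the test, and MSLN was too low to be tested.

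HCC827 is a human lung adenocarcinoma cell line with a deletion in exon 19 of EGFR, which both groups carry according to the labels. The resistant cells, HCC827/GR, were derived from it by stepwise gefitinib (an EGFR kinase inhibitor) over more than 6 months, and replicates 1, 2 and 3 were used. The parental cells are labelled HCC827/GS, are called HCC827 below, and were represented by replicates 2 and 3. HCC827/GR is 1 derived line, and neither its clonality nor the presence of gefitinib at harvest is given in the sources used here. No source says that libraries of a group came from separate cultures, so the p-values measure the spread between these libraries, which may be technical.

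These proteins act at the cell surface. EPCAM is an adhesion molecule of simple epithelia that spans the membrane. The carcinoembryonic antigen family (CEACAM) builds its members from immunoglobulin domains, and the LY6 family builds its members from a small three-finger fold that is usually held by a glycosylphosphatidylinositol (GPI) lipid anchor. Antibodies, conjugates and engineered T cells have been directed at several of them, because tumours of epithelial origin often carry more of the protein than normal tissue.

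CEACAM5 and CEACAM6 could not be separated in the table. No entry is named CEACAM5. The GENCODE release 29 transcripts of CEACAM5 were listed in the entry named CEACAM6, which joins CEACAM5 (chr19:41708585-41729798), AC243967.1 (chr19:41708612-41761282) and CEACAM6 (chr19:41750977-41772208), all on the plus strand of GRCh38. One value per library therefore stands for both antigens, and it is called the CEACAM5 and CEACAM6 entry here. CEACAM1 (chr19:42507304-42561234, minus strand) had an entry of its own.

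How alike these genes are is shown by their first 120 coding bases, taken from the GENCODE release 29 transcripts (GRCh38), where capitals mark each base that is not the one in CEACAM5. The stretches span 2 coding exons each, at chr19:41708732-41708795 and chr19:41709680-41709735 in CEACAM5 (plus strand), chr19:41755639-41755702 and chr19:41756600-41756655 in CEACAM6 (plus strand), and chr19:42528311-42528374 and chr19:42527345-42527400 in CEACAM1 (minus strand).
CEACAM5: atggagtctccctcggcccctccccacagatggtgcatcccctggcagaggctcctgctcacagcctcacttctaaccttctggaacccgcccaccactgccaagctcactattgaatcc
CEACAM6: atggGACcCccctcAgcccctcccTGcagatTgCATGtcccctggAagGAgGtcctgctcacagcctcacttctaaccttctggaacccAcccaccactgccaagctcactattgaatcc
CEACAM1: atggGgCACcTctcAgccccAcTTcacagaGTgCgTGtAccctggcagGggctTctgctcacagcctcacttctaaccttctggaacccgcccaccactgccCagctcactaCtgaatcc
CEACAM6 was unlike CEACAM5 at 17 of these 120 bases and CEACAM1 at 19. Over the whole coding sequence, 40 of the 986 windows of 50 bases in CEACAM6 (4.06%) also occurred in CEACAM5 and 35 (3.55%) in CEACAM1. The longest identical runs were 65 bases between CEACAM5 and CEACAM6, 68 between CEACAM1 and CEACAM5 and 71 between CEACAM1 and CEACAM6, and no window of 100 bases was shared. The share of reads that the authors' mapping could not place between these genes was not tested. The coding sequences of the other 6 genes shared no window of 50 bases with any of the 9.

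Sequence upstream of the RefSeq transcription start could be matched for 4 of the 9 genes, CEACAM1, CEACAM5, CEACAM6 and LYPD3. EPCAM, MSLN, LY6D, LY6E and LY6K had no entry in the promoter table used. The 150 bases before the start are shown for these 4 genes, 5′ to 3′ on the strand of the gene (RefSeq, GRCh38.p14). They lie at chr19:41708476-41708625 (CEACAM5, plus strand), chr19:41755380-41755529 (CEACAM6, plus strand), chr19:42528482-42528631 (CEACAM1, minus strand) and chr19:43465609-43465758 (LYPD3, minus strand), and the GENCODE genes CEACAM5 and LYPD3 begin inside these windows. Capitals mark matches, on either strand, to the motifs named after them.
CEACAM5: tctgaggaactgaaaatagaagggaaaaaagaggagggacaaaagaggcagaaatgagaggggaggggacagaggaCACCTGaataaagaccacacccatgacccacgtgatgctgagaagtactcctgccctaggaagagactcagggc
CEACAM6: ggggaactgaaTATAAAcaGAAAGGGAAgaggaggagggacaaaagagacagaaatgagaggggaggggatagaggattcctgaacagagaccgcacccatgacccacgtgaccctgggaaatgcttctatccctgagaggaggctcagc
CEACAM1: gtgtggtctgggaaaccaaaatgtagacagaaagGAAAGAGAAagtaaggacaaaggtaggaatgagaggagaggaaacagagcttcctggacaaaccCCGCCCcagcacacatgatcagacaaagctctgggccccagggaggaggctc
LYPD3: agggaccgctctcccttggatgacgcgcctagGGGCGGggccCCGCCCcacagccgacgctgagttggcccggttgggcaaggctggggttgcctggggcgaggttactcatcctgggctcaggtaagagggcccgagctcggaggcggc
Aligned end to end, CEACAM5 and CEACAM6 had the same base in 121 of 155 columns (78.1%), CEACAM6 and CEACAM1 in 104 of 162 (64.2%), CEACAM5 and CEACAM1 in 99 of 163 (60.7%) and CEACAM5 and LYPD3 in 73 of 165 (44.2%). Motifs were searched in the 250 bases before the start, and positions count from the start. The E-box CAGGTG, read by ZEB and SNAI repressors, matched CEACAM5 at -74 and is held by 17.5% of the 35116 promoters in the table. The interferon-response half-repeat GAAANNGAA matched CEACAM6 at -131 and CEACAM1 at -116 and is held by 6.88% of promoters. The TATA box TATAAA matched CEACAM6 at -139 (10.7% of promoters), and the GC box GGGCGG matched CEACAM6 at -211, outside the printed bases, CEACAM1 at -52 and LYPD3 at -118 and -108 (42.6% of promoters). The palindromic grainyhead site AACCGGTT, the AP-1 site TGANTCA and the ETS core CCGGAA matched none of the 4 windows and are held by 0.117%, 6.57% and 14.5% of promoters. The GAAANNGAA and TATAAA matches did not overlap. A match describes letters, and no match says only that these letters are not in this window.

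Across the libraries, FPKM carries no read number, so depth and counting error are unknown, and the rough relative depth from ratios of low values ran from 0.922 to 1.26. Between 8896 and 9803 entries were listed at 0 in a library. Of 146 tested protein-coding entries with a single exon, 96 (65.8%) were listed at 0 in at least 1 library, so a value of 0 is read only as a gene listed at 0. The 8 entries described here have between 3 and 18 exons. Of 11 lung adenocarcinoma epithelial markers, 9 had an entry and 5 reached 1 FPKM, with a summed level of 435 to 563 FPKM in HCC827/GR and 981 to 1114 in HCC827. Among them the lung factor NKX2-1 stood at 0.415 to 0.963 FPKM in HCC827/GR and at 4.003 and 4.599 in HCC827, and the surfactant genes were near 0 in both. Of the blood markers 4 of 6 had an entry, and CD68 alone exceeded 1 FPKM (summed 33.0 to 38.3 in HCC827/GR and 30.9 to 39.0 in HCC827), with the defining marker PTPRC at no more than 0.0228. All 3 endothelial markers had an entry, and PECAM1 stood at 4.34 and 3.32 in HCC827 and was 0 in each HCC827/GR library, whereas VWF and CDH5 were near 0 throughout. All 7 fibroblast markers had an entry, PDGFRA alone exceeded 1 FPKM, and the sum was 2.72 to 3.06 in HCC827/GR and 3.33 to 3.44 in HCC827. Fewer cells with a transcript and less transcript per cell cannot be told apart in bulk RNA.

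**Figure D1:**
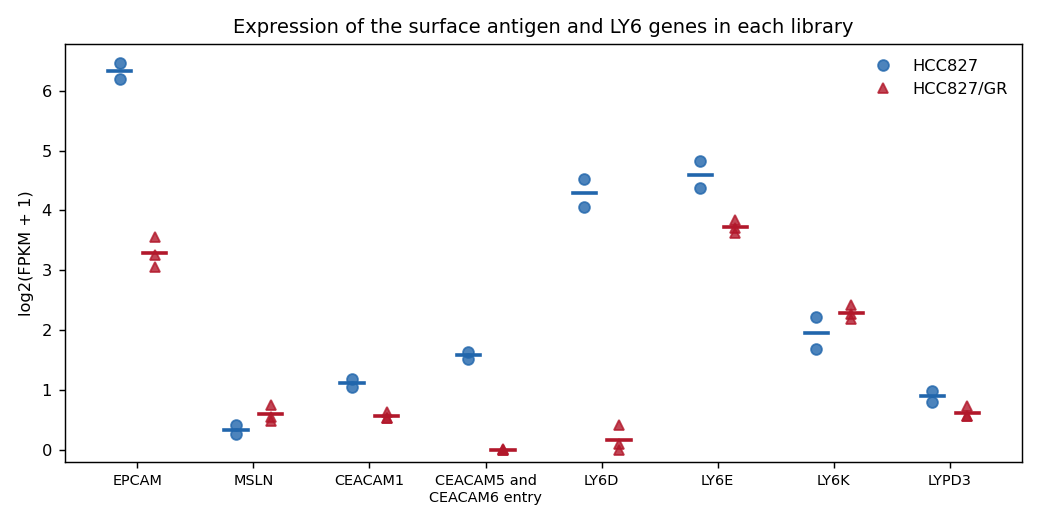
Level of each gene on the log2(FPKM + 1) scale in the 2 HCC827 libraries (blue circles) and the 3 HCC827/GR libraries (red triangles), with a bar at each group mean. EPCAM, LY6D, LY6E, CEACAM1, LYPD3 and the CEACAM5 and CEACAM6 entry lie lower in every HCC827/GR library, LY6K overlaps, and MSLN lies below 1 in all 5 libraries.

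EPCAM (chr2:47345158-47387601, plus strand), the epithelial adhesion molecule that recruits claudins to cell contacts, was the most abundant of the 9 genes in parental cells. It stood at 86.9 and 72.6 FPKM in HCC827 replicates 2 and 3 and at 7.32, 10.8 and 8.53 FPKM in HCC827/GR replicates 1, 2 and 3. All 3 resistant libraries lay far below both parental libraries, and the means were 8.88 ± 1.75 (SD, n = 3) against 79.8 ± 10.1 FPKM (SD, n = 2), a ratio of 8.99 between parental and resistant cells. The log2 fold change was -3.04 (SE 0.19, 95% interval -3.52 to -2.56, limma with Benjamini-Hochberg adjusted p = 0.00349), which ranked 36 from the most lowered of all entries tested. It remained past the threshold whichever library was left out. A second EPCAM entry was listed at 0.110 FPKM in HCC827/GR replicate 2 and at 0 in the other 4 libraries.

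LY6D (chr8:142784880-142786592, minus strand), a GPI-anchored keratinocyte surface antigen, had the largest fall of these 7 entries on the log2(FPKM + 1) scale, an order that depends on the scale because the CEACAM5 and CEACAM6 entry was also at or near 0 in HCC827/GR. Its entry stood at 21.9 and 15.7 FPKM in HCC827 (mean 18.8 ± 4.42, SD, n = 2). In HCC827/GR it was listed at 0.328, 0.0717 and 0 FPKM. The groups did not overlap, and the log2 fold change of -4.12 (SE 0.20, 95% interval -4.65 to -3.59, limma adjusted p = 0.00239) ranked 7 from the most lowered entry. This call also held with each library left out. A second LY6D entry showed 1.77 and 0.214 FPKM in HCC827 and 0 in the 3 HCC827/GR libraries.

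Carcinoembryonic antigen itself (CEACAM5) and CEACAM6, both GPI-anchored adhesion proteins, shared 1 entry. That entry stood at 1.87 and 2.11 FPKM in HCC827 (mean 1.99 ± 0.173, SD, n = 2) and at 0, 0.00519 and 0 FPKM in HCC827/GR. The log2 fold change was -1.58 (SE 0.13, 95% interval -1.92 to -1.24, limma adjusted p = 0.00687), and because the parental level was low it understates the change, which was -4.36 with a pseudocount of 0.1, where EPCAM had -3.17 and LY6D -6.58. With HCC827 replicate 3 left out the entry fell below the filter on low values and could not be tested, and with each of the other 4 libraries left out the call held. A library-size covariate, the log2 sum of each library's nonzero FPKM values below their upper quartile, was also added to the fit. It is not a read number. With it the entry had -1.58 (limma adjusted p = 0.0563).

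CEACAM1, which spans the membrane and carries inhibitory tyrosine motifs in some isoforms, stood at 1.27 and 1.06 FPKM in HCC827 and at 0.553, 0.451 and 0.438 FPKM in HCC827/GR. The groups did not overlap, with means of 1.17 ± 0.146 (SD, n = 2) and 0.481 ± 0.0633 FPKM (SD, n = 3). Its log2 fold change of -0.55 (SE 0.13, 95% interval -0.88 to -0.22) missed the threshold after adjustment (limma adjusted p = 0.0649), and it passed when limma was run without the trend (adjusted p = 0.0434).

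LY6E (chr8:143017982-143023832, plus strand), an interferon-stimulated LY6 protein known for its effects on virus entry, was the LY6 gene with the highest level. Parental libraries stood at 27.3 and 19.7 FPKM and resistant libraries at 11.3, 13.3 and 12.0 FPKM, without overlap. The means were 23.5 ± 5.38 (SD, n = 2) and 12.2 ± 0.994 FPKM (SD, n = 3), a ratio of 1.93. The log2 fold change of -0.88 (SE 0.17, 95% interval -1.32 to -0.44) passed narrowly (limma adjusted p = 0.0404) and did not pass when any 1 of the 5 libraries was left out (-1.11 to -0.65, adjusted p 0.0530 to 0.122) or when all entries were tested without a filter (adjusted p = 0.0737).

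LYPD3 (chr19:43460787-43465660, minus strand), also called C4.4A and related to the urokinase receptor, stood at 0.982 and 0.743 FPKM in HCC827 and at 0.476, 0.664 and 0.484 FPKM in HCC827/GR. Every resistant value was lower, yet the gap between the groups was smaller than the spread within them. The log2 fold change was -0.27 (SE 0.14, 95% interval -0.65 to 0.10, limma adjusted p = 0.305).

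LY6K (chr8:142700111-142705127, plus strand), a testis protein needed for sperm migration and an antigen of several carcinomas, was the LY6 gene whose groups overlapped. It stood at 2.22 and 3.66 FPKM in HCC827 and at 4.37, 3.79 and 3.56 FPKM in HCC827/GR. The log2 fold change was 0.34 (SE 0.19, 95% interval -0.16 to 0.83, limma adjusted p = 0.332), an interval that holds both no change and a rise. The 2 parental libraries set this value, since it was 0.07 without HCC827 replicate 2 and 0.60 without HCC827 replicate 3.

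MSLN (chr16:760762-768865, plus strand) encodes mesothelin, a GPI-anchored protein of mesothelium that binds the mucin MUC16. It stood at 0.327 and 0.194 FPKM in HCC827 and at 0.687, 0.389 and 0.456 FPKM in HCC827/GR. These values did not overlap and ran the other way from EPCAM, but the mean of 0.411 FPKM was under the filter of 0.5. Without a filter the log2 fold change was 0.26 (SE 0.14, 95% interval -0.13 to 0.64, limma adjusted p = 0.473).

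**Figure D2:**
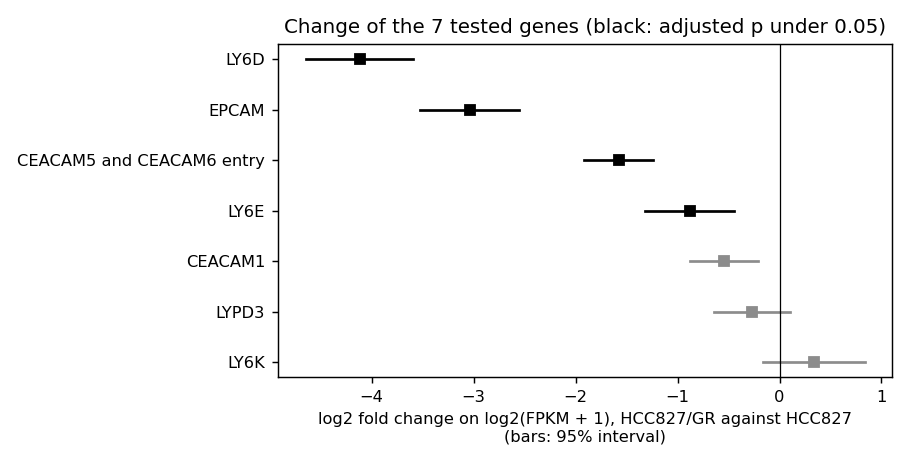
Log2 fold change on log2(FPKM + 1) of the 7 tested genes in HCC827/GR against HCC827 (squares) with limma 95% intervals (lines), black where the adjusted p was under 0.05. LY6D, EPCAM, the CEACAM5 and CEACAM6 entry and LY6E lie left of 0 at -4.12, -3.04, -1.58 and -0.88, and the intervals of LYPD3 and LY6K cross 0.

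Of the 7 genes tested, 4 were called lower, where 5.71% of all entries tested were called lower, and 0 were called higher, where 5.26% of all entries were (limma, adjusted p under 0.05). The genes were chosen with earlier results of these data known. These counts and those that follow are therefore no independent evidence of an excess of falls among surface antigens. At an unadjusted p under 0.05 (limma), 5 were lower and 0 higher, where 2242 of all 16189 entries tested were lower and 2168 higher. At a fold of at most 0.5 in FPKM + 1 and p under 0.05, 3 entries were lower against 3.97% of all entries, and they were EPCAM, LY6D and the CEACAM5 and CEACAM6 entry. CEACAM1 is not among them on that scale, although its ratio of mean FPKM was 0.412. In 6 of the 7, every HCC827/GR value lay below every HCC827 value, as it did in 23.4% of all entries tested. The median log2 fold change of the 7 was -0.88 and that of all entries tested was 0.0014. Because 3 libraries were set against 2, an exact permutation test of a single gene (two-sided) cannot go below p = 0.1, and it gave 0.1 for each of the 6 genes whose resistant values were all lower. The filter kept genes by their mean over both groups, so a gene low in both groups had no chance of a call. LY6D, the CEACAM5 and CEACAM6 entry and CEACAM1 passed it only through their HCC827 values. Their means in HCC827/GR were 0.133, 0.00173 and 0.481 FPKM, under the filter of 0.5. Only a fall could be called for entries that passed in this way. Among genes named below, TSPAN8, ESRP1, EHF, GRHL2, OVOL1, MUC16, PCSK6, AGR2 and the entry that holds IFITM1 also passed in this way. The shares of 5.71% lower and 5.26% higher over all entries also stand beside the counts of the lists below.

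The 3 LY6 genes lie within 1 stretch of 8q24.3, where 18 of 25 listed genes had an entry and 10 were tested. LY6D and LY6E were the 2 called lower, and 0 were called higher (0 also at an unadjusted p under 0.05). THEM6, which lies between LY6K and LY6D, had a log2 fold change of -0.10 (limma adjusted p = 0.637), and JRK beside LY6K had 0.11 (adjusted p = 0.851). The tested neighbour beyond LY6E, an entry that joins GLI4 to ZFP41 and AC138696.1, had -0.10 (adjusted p = 0.619). The median of the stretch was -0.10.

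On chromosome 19, 22 of 32 listed genes around the CEACAM genes and LYPD3 had an entry and 15 were tested. The CEACAM5 and CEACAM6 entry was the 1 called lower, while CADM4 (0.90, limma adjusted p = 0.0276), ARHGEF1 (0.62, adjusted p = 0.0338) and RPS19 (0.45, adjusted p = 0.0463) were called higher, and these 3 were no longer called with any 1 library left out or with a library-size covariate, which also ended the call of the CEACAM5 and CEACAM6 entry. CADM4 encodes a cell adhesion molecule, ARHGEF1 an activator of RhoA, and RPS19 a ribosomal protein. RPS19 is the tested gene next to the CEACAM5 and CEACAM6 entry, and it stood at 85.5, 83.9 and 91.2 FPKM in HCC827/GR and at 64.3 and 62.5 in HCC827. The median over the stretch was 0.11.

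**Figure D3:**
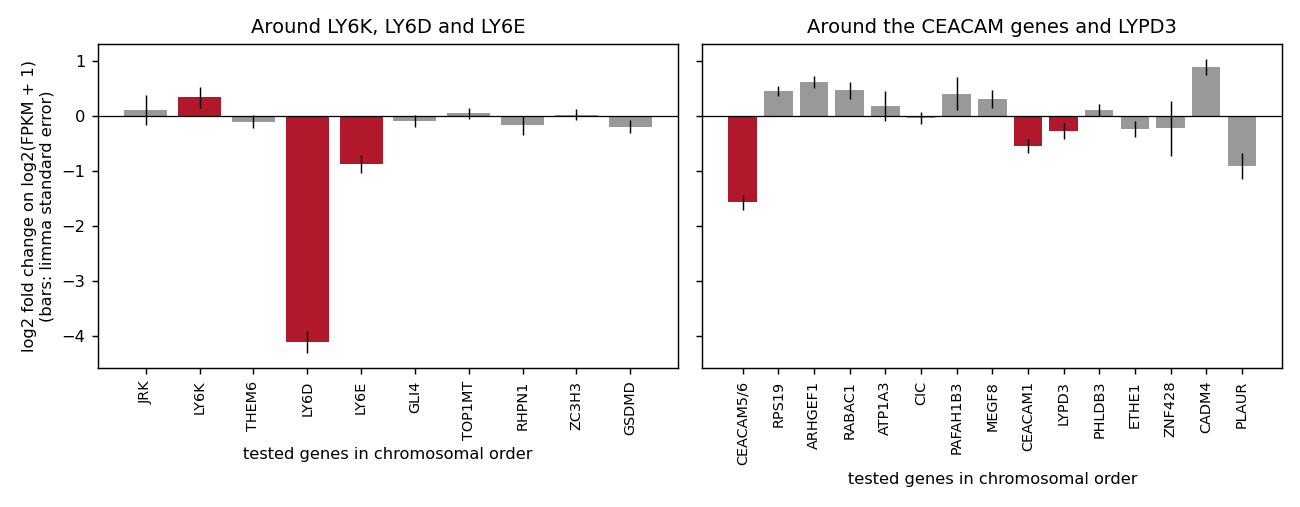
Log2 fold change on log2(FPKM + 1) of tested genes in chromosomal order around the LY6 genes (left) and around the CEACAM genes and LYPD3 (right), with limma standard errors as thin lines. Red bars mark the surface antigen and LY6 genes, and grey bars mark their neighbours. LY6D at -4.12 and the CEACAM5 and CEACAM6 entry at -1.58 stand among neighbours such as THEM6 at -0.10 and RPS19 at 0.45.

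Proteins that act with EPCAM were taken as a list of 21 genes, of which 19 had an entry and 18 were tested. Of these, 5 were called lower and 1 higher, with a median of 0.05. The surface protease matriptase, ST14, which cleaves EPCAM, fell from 37.9 and 31.6 FPKM in HCC827 to 1.42, 2.04 and 1.19 in HCC827/GR (log2 fold change -3.82, limma adjusted p = 0.00234). Its inhibitor SPINT1 fell by 2.13 on the log2 scale (limma adjusted p = 0.02003), as did the tetraspanins TSPAN8 (-2.60, adjusted p = 0.00176) and CD9 (-1.20, adjusted p = 0.0173), which sit beside EPCAM in the membrane. CLDN7, the claudin that EPCAM binds, is part of an entry that joins it to GABARAP and other genes, and that entry fell by a smaller amount (-0.40, adjusted p = 0.0486). CLDN1 went the other way, from 6.85 and 6.09 to 19.6, 32.0 and 28.8 FPKM (1.87, adjusted p = 0.0146). ST14 and TSPAN8 were called whichever library was left out, SPINT1 in 1 of those 5 fits, CD9 and CLDN1 in 2 each and CLDN7 in 0. With a library-size covariate, ST14 and TSPAN8 alone were called.

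Of the 18 genes, 12 did not pass the test, several of them proteases and partners that act on EPCAM after its synthesis. ADAM17, the protease that sheds its outer part, had a log2 fold change of 0.16 (limma adjusted p = 0.444), and CTNNB1, which encodes the β-catenin that binds its released inner part, had -0.03 (adjusted p = 0.882). PSEN2 (0.46, adjusted p = 0.0632) and NCSTN (0.30, adjusted p = 0.141), subunits of the γ-secretase that cuts EPCAM within the membrane, had higher values in every HCC827/GR library without passing.

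Regulators of epithelial identity, 20 listed and 14 tested, gave 8 called lower and 0 higher (0 also at an unadjusted p under 0.05), with a median of -1.15. Over all entries tested, 5.71% were called lower and 5.26% higher. The splicing factor ESRP1 stood at 16.3 and 12.3 FPKM in HCC827 and at 0.0476, 0.1002 and 0.0475 in HCC827/GR (-3.83, limma adjusted p = 0.00161). The ETS factor EHF (-2.51, adjusted p = 0.00275), the grainyhead factor GRHL2 (-2.47, adjusted p = 0.00469) and OVOL1 (-1.35, adjusted p = 0.0429) fell too. ESRP1, EHF, GRHL2 and OVOL1 passed the filter on low values only through HCC827. Their means in HCC827/GR were 0.0651, 0.204, 0.014 and 0.00799 FPKM, so only a fall could be called for them. ESRP1, EHF and GRHL2 were called with any library left out, and OVOL1 in 1 of those 5 fits. With 1 library left out, whichever it was, the list had between 3 and 5 genes called lower, and with a library-size covariate ESRP1, EHF and GRHL2 were the 3 called. These factors and the summed epithelial markers moved with EPCAM and LY6D, and their part in that change was not tested.

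MUC16, the surface mucin known as CA125 that binds mesothelin, stood at 7.24 and 4.95 FPKM in HCC827 and at 0.471, 0.527 and 0.208 in HCC827/GR. It fell by 2.33 on the log2 scale (limma adjusted p = 0.00733), and the call held with every library left out but not with a library-size covariate (-2.20, adjusted p = 0.0525). The proprotein convertase PCSK6 fell (-0.95, adjusted p = 0.0194) but was not called with any 1 library left out, and FURIN, the convertase that cuts the mesothelin precursor, had 0.32 (adjusted p = 0.404). Of the 8 genes on this list 4 were tested, 2 were lower and 0 higher (0 at an unadjusted p under 0.05). MUC16 and PCSK6 passed the filter on low values only through HCC827 (means in HCC827/GR 0.402 and 0.435 FPKM). Only a fall could therefore be called for them.

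Among partners of CEACAM1 and LYPD3, 10 of 11 were tested, 4 were lower and 0 higher (1 higher at an unadjusted p under 0.05), with a median of -0.84. AGR2, a secreted partner of LYPD3, stood at 2.22 and 1.15 FPKM in HCC827 and at 0.0136, 0.0258 and 0 in HCC827/GR (-1.38, limma adjusted p = 0.0265). It passed the filter on low values only through HCC827, so only a fall could be called for it. The laminin chains LAMB3 (-1.15, adjusted p = 0.0489) and LAMA3 (-0.92, adjusted p = 0.0108) and the phosphatase PTPN6, which CEACAM1 recruits (-0.61, adjusted p = 0.0312), were also lower. With 1 library left out, LAMA3 was called in 2 of the 5 fits, LAMB3 and AGR2 in 1 each and PTPN6 in 0, and the list had 0 calls without HCC827/GR replicate 1 or without HCC827 replicate 2. It also had 0 with a library-size covariate.

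All of the 8 entries but EPCAM and CEACAM1 carry the annotation "anchored component of membrane" in the deposited table. Over the 44 tested entries with this annotation, 6 were lower and 6 higher, and their median was 0.03. The 44 include LY6D, LY6E, LY6K, LYPD3 and the CEACAM5 and CEACAM6 entry, so they are not a separate comparison. LY6D, LY6E and the CEACAM5 and CEACAM6 entry are among the 6 lower. A list of 33 genes, most of them for building and attaching the GPI anchor, also held TMED2, TMED10, GPLD1 and GDE1. Of the 30 tested, 0 were called lower and 0 higher (1 lower and 3 higher at an unadjusted p under 0.05, limma), with a median of -0.12. GPAA1, a subunit of the transamidase that attaches the anchor, had 0.44 (adjusted p = 0.0891).

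Other LY6 and uPAR family genes were mostly below the filter. Of 31 listed, 23 had an entry and 5 were tested, and 0 were called in either direction (1 lower and 1 higher at an unadjusted p under 0.05, limma). PLAUR, the urokinase receptor, stood at 2.43, 1.85 and 3.54 FPKM in HCC827/GR and at 4.91 and 6.55 in HCC827 (-0.92, adjusted p = 0.0842). The entry that holds CD59, a GPI-anchored inhibitor of complement, had 0.79 (adjusted p = 0.166). LY6H, a further LY6 gene, was listed at 0 in all 5 libraries.

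LY6E is an interferon-stimulated gene, so 30 other genes of that kind were examined. Of 20 tested, 4 were lower and 0 higher (9 lower and 0 higher at an unadjusted p under 0.05, limma), with a median of -0.35. Among the 4 were the entry that joins IFITM1 and IFITM2 (-1.21, limma adjusted p = 0.0254) and IFITM3 (-0.53, adjusted p = 0.0251). These encode membrane proteins that restrict virus entry. OAS3 (-1.03, adjusted p = 0.0408), a sensor of double-stranded RNA, was also among them. As with LY6E, none of these 3 was called when any 1 library was left out or with a library-size covariate.

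The wider field of 47 other carcinoma surface targets held 30 tested genes, of which 8 were lower and 2 higher, with a median of -0.67. P-cadherin, CDH3, had the largest fall among them, from 59.5 and 52.7 FPKM in HCC827 to 1.28, 2.09 and 0.873 in HCC827/GR (-4.59, limma adjusted p = 0.00248). EGFR, the target of gefitinib, stood at 70.8 and 56.4 FPKM in HCC827 and at 7.82, 5.78 and 3.52 in HCC827/GR (-3.31, adjusted p = 0.00926). The zinc transporter SLC39A6 (LIV-1) rose by 1.43 (adjusted p = 0.0206) and STEAP2, a metalloreductase, by 0.55 (adjusted p = 0.0375). CDH3, TSPAN8 and MUC16 were called whichever library was left out, EGFR in 3 of those 5 fits, SLC39A6 in 1 and STEAP2 in 0. With 1 library left out, 3 to 6 of the list were lower and 0 to 1 higher. With a library-size covariate CDH3, EGFR and TSPAN8 were the 3 called lower and 0 were called higher.

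**Figure D4:**
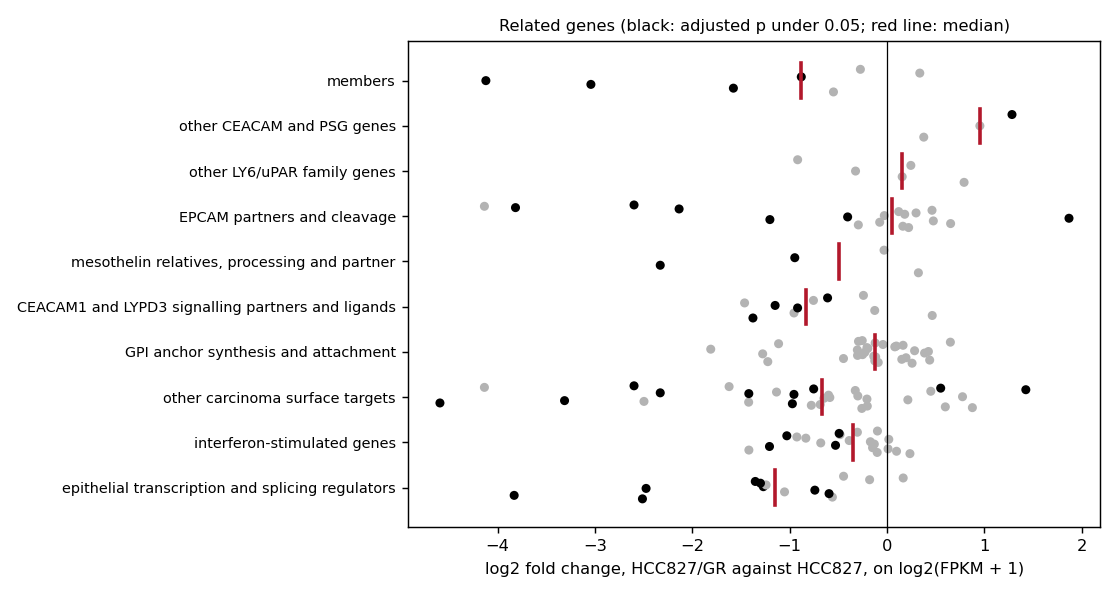
Log2 fold change on log2(FPKM + 1) of each tested gene (dots, black where the adjusted p was under 0.05), grouped by list, with the median of each list as a red line. The top line holds the 7 tested surface antigen and LY6 genes, named members in the plot, with a median of -0.88, against -1.15 for the epithelial regulators and -0.12 for GPI anchor synthesis.

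The entries whose profile over the 5 libraries was closest to that of each called gene were found by Euclidean distance between centred log2(FPKM + 1) values. For EPCAM they were TMC5 (distance 0.294) and TRIM55 (0.340), and TMC5 stood at 11.3 and 10.2 FPKM in HCC827 and at 0.264, 0.409 and 0.419 in HCC827/GR. LY6D was closest to the entry that joins AC009495.1 and GALNT3 (0.361) and to FAAH2 (0.393). The nearest to the CEACAM5 and CEACAM6 entry were DNAJC5B (0.0779) and CNTNAP3 (0.0901), and those nearest to LY6E were MIR6777 (0.0578) and GPT2 (0.0818). With 2 groups of libraries, such a distance mostly records a like difference between the groups. The entries named FAAH2 and DNAJC5B matched no GENCODE transcript.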

How the data were processed

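The authors deposited 1 table of FPKM values, which they made by trimming with Cutadapt, mapping with Bowtie2 and TopHat2 and assembling and quantifying with StringTie and Ballgown. Versions are not given in the sources used here, and the submitters' processing notes name the build hg18. The labels describe a small-RNA library and the methods an rRNA-depleted mRNA library, and this could not be settled. One FPKM column that matched no sample was left out (1 in all). Positions came from GENCODE release 29 (GRCh38) through Ensembl transcript identifiers, of which 135164 of 135299 matched, and 1491 entries join 2 or more genes. Among these are the entries named LAMB3, joined to MIR4260, and PCSK6, joined to AC023024.2.

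The 7 genes were tested within limma 3.58.1 in R 4.3.3 (two-sided, lmFit and eBayes with trend) using log2(FPKM + 1) of all 16189 entries whose mean reached 0.5 FPKM, with Benjamini-Hochberg adjustment over all of them. Fold changes on this scale understate the change of low genes. Python 3.11.15, numpy 2.4.6, pandas 2.3.3, scipy 1.17.1, matplotlib 3.10.9 and Biopython 1.88 were used for the rest. The fits were tested on simulated data. The genes and lists were chosen with earlier results of these data known, so the calls are not independent evidence. Named genes were all 9 genes, up to 4 called genes in each direction per list, neighbours of the genes, and the 2 closest profiles. GPAA1, PLAUR, CD59, LY6H, ADAM17, CTNNB1, PSEN2, NCSTN, CLDN7, FURIN, PSG5 and CEACAM19 were named after their values were seen. A gene within this rule is left unreported. Alternatives were a pseudocount of 0.1, no filter, quantile normalization, median-ratio scaling, a filter at 1 FPKM and no trend. Further alternatives were a library-size covariate, a replicate block, entries of a symbol summed, the ratio of mean FPKM, and each library left out. The library-size covariate was the log2 sum of each library's nonzero FPKM values below their upper quartile, so it holds no read number.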

Additional observations from a re-analysis of the deposited data

How the results depend on the processing

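The count of the 9 genes called lower, 4, stayed within 1.5 times under pseudocount, filter, scaling, trend and summing alternatives. It was 2 with a library-size covariate and between 2 and 3 with 1 library left out, and it was 2 without HCC827 replicate 3, where the CEACAM5 and CEACAM6 entry could not be tested. No gene was called higher under any alternative, and no log2 fold change reversed. For the CEACAM5 and CEACAM6 entry the covariate gave -1.58 (adjusted p = 0.0563). LY6E missed the threshold at -0.88 without a filter, at -0.90 with the covariate (adjusted p = 0.139) and with each library left out (-1.11 to -0.65). CEACAM1 passed at -0.55 without the trend. With libraries left out, EPCAM ranged from -3.18 to -2.91, the CEACAM5 and CEACAM6 entry from -1.64 to -1.58, LY6D from -4.35 to -3.89, CEACAM1 from -0.62 to -0.48, LYPD3 from -0.37 to -0.18 and LY6K from 0.07 to 0.60.

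With a replicate block, 0 of the genes and 0 of all entries were called by limma in either direction (5 genes lower and 0 higher, and 1869 entries lower and 1676 higher, at an unadjusted p under 0.05). EPCAM was then at -2.92, the CEACAM5 and CEACAM6 entry at -1.58, LY6D at -4.24 and LY6E at -0.83 (adjusted p 0.124 to 0.1502). The groups share only 2 replicate numbers, the correlation of their deviations was 0.0274, and nothing shows that the numbers pair the libraries. Of all entries, 924 were lower and 851 higher. These counts were 127 and 120 with the covariate, 248 to 434 and 181 to 450 with 1 library left out, and 504 were higher without a filter. FPKM gives no depth, so how far low levels such as those of MSLN limit a comparison is unknown.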

Other observations

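Pregnancy-specific glycoprotein genes (PSG) are placental relatives of the CEACAM genes in the same chromosome region. Of 20 listed CEACAM and PSG relatives 15 had an entry and 3 were tested, of which 1 was called higher and 0 lower (3 higher and 0 lower at an unadjusted p under 0.05, limma). Over all entries tested, 5.26% were called higher and 5.71% lower. The 3 were PSG8, PSG5 and the entry named CEACAM19. The last joins PVR, CEACAM19 and AC243964.3, so its value is not that of CEACAM19 alone. The PSG8 and PSG5 entries matched no GENCODE transcript. They passed the filter on low values only through HCC827/GR, since their means in HCC827 were 0.104 and 0.0851 FPKM. Only a rise could therefore be called for these entries. PSG8 stood at 1.94, 1.67 and 1.48 FPKM in HCC827/GR and at 0.153 and 0.0548 in HCC827, and it rose by 1.29 on the log2 scale (limma adjusted p = 0.0114). It was called in 1 of the 5 fits with a library left out (adjusted p 0.0412 to 0.0606) and not with a library-size covariate (adjusted p = 0.0554). PSG5 stood at 1.47, 1.26 and 0.672 FPKM against 0.0948 and 0.0754 (0.96, adjusted p = 0.0576). No PSG gene exceeded 1.94 FPKM in HCC827/GR or 0.153 FPKM in HCC827. PSG genes are near-identical copies, so values of single PSG genes are uncertain, and the part of shared reads was not tested.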
